A study of Arabidopsis thaliana with 32 samples.

Results

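NaCl and ethylene glycol were compared at equal nominal osmolarity in roots of Arabidopsis thaliana, on 8 NaCl arrays and 8 ethylene glycol arrays of the 32 arrays in the series. The NaCl groups held 25, 50, 75 and 100 mM and the ethylene glycol groups 50, 100, 150 and 200 mM, with 2 arrays for each dose. NaCl was counted as 2 particles, so that its doses stood at nominal osmolarities of 50, 100, 150 and 200 mM beside the equal doses of ethylene glycol. All plants were of the Columbia-0 accession, grown for 10 days on agar plates and 6 days in hydroponic solution, and their roots were collected at 16 days of age after 15 min in solution with or without the solute. Each pair held 1 NaCl array and 1 ethylene glycol array of the same osmolarity and of the same run of sample title numbers, 17 to 32 (run 1) or 33 to 48 (run 2), which gave 8 pairs. The 2 control arrays, moved to the same hydroponic solution without a solute, are in neither side of the difference and are given beside it. Like the other arrays of the series, they entered the fit that estimates the run effect and the spread, and the 16 NaCl and ethylene glycol arrays fitted alone gave 243 called genes in place of 152. Nothing in the labels tells whether both arrays of a dose had their own plants, and each p-value therefore covers the spread among arrays, which may be technical. The osmolarity is nominal because the labels give doses and no measured osmotic potential.

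A solute outside the root lowers the water potential of the medium and draws water from the cells. NaCl splits into ions that enter only partly within minutes and that also change membrane voltage and cytosolic calcium, whereas ethylene glycol is a small uncharged molecule that crosses plant membranes readily, so that a loss of turgor is brief. Plant roots respond to salt and to osmotic stress within minutes with calcium signals, reactive oxygen species and transcription of early genes such as those for zinc finger, WRKY and AP2/ERF factors. A comparison of these solutes at 1 osmolarity sets an ionic solute that enters slowly against an uncharged solute that enters quickly.

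Values were log2 expression for 28283 genes, 16552 of them named and 11731 known by probe set only. Array medians lay between 4.2 and 4.22 on the NaCl arrays and between 4.21 and 4.24 on the ethylene glycol arrays of run 1, and between 4.15 and 4.16 and between 4.15 and 4.19 in run 2. The SD of all values on an array was 2.11 to 2.19 for NaCl and 2.2 to 2.22 for ethylene glycol in run 1, and 2.1 to 2.15 and 2.13 to 2.15 in run 2. In run 1 every NaCl array had a narrower spread of values than every ethylene glycol array, and the part of this in the results was not tested beyond the rescaled fits given with the counts. The title numbers of the NaCl arrays (18 to 21 and 34 to 37) and of the ethylene glycol arrays (29 to 32 and 45 to 48) form separate blocks within each run. If these numbers mark an order of handling, that order and the solute cannot be told apart. RCA, Rubisco activase and a marker of green tissue, was low at 3.39 ± 0.183 on the NaCl arrays and 3.34 ± 0.349 on the ethylene glycol arrays (SD, n = 8 each), and EXPA7, an expansin of root hairs, was at 7.62 ± 0.412 and 7.18 ± 0.47.

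Averaged over the 4 osmolarities, 72 genes were higher and 80 were lower in NaCl than in ethylene glycol (limma with the run as a block, Benjamini-Hochberg adjusted p under 0.05). These were 0.255% and 0.283% of the genes tested. The genes higher in NaCl included a leucine-rich repeat protein gene, genes for a WRKY, a Dof and an AP2/ERF transcription factor and 2 expansins, and those lower included a histone gene and 2 genes of the plastid NDH complex. Subtilase and C1-domain protein genes were called on both sides. Differences were small. The median was 0.48 among the higher genes (range 0.236 to 1.208 log2 units) and −0.328 among the lower genes (range −0.673 to −0.207), against a median of 0.008 over all genes, and 3 genes passed a 2-fold difference, all of them higher in NaCl. In 53 of the 72 higher genes and 57 of the 80 lower genes, all 8 pairs differed in the same direction. These pairs are the arrays that gave the calls, so the counts are no separate support for them. The share over all genes was not counted.

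**Figure D1:**
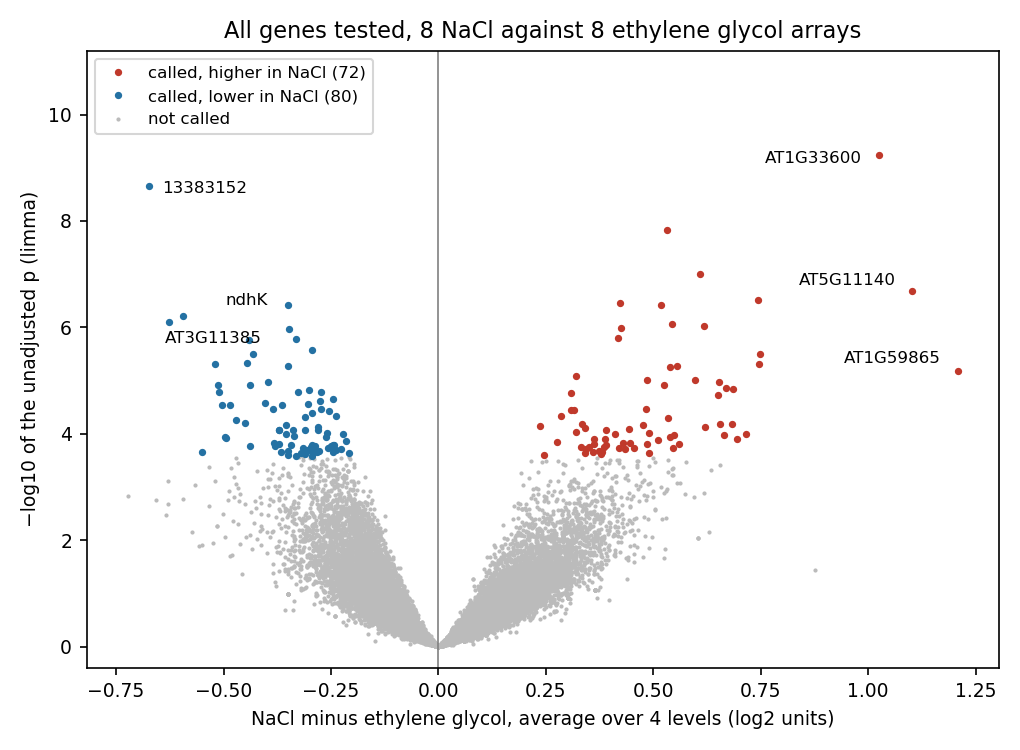
Each point is 1 of 28283 genes, with the NaCl minus ethylene glycol difference averaged over 4 osmolarities (x axis, log2 units) and −log10 of the unadjusted limma p (y axis). The 72 genes called higher in NaCl reach 1.208 log2 units, whereas the 80 called lower end at −0.673.

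These calls rest on the run block. Without the block 0 genes were called, 1357 had an unadjusted p under 0.05 and the smallest adjusted p was 0.426 (limma), against 4268 with an unadjusted p under 0.05 with the block. The blocked fit has a median residual SD of 0.19 and the unblocked fit 0.272. The split between directions moved with the scaling, to 95 higher and 48 lower after centring each array on its median and to 109 higher and 46 lower after quantile normalisation. Leaving out 1 array changed the count from 152 by more than 1.5 times for 13 of the 16 arrays. It was 88, 89, 87 and 67 without the NaCl arrays of run 1 at 25, 50, 75 and 100 mM, and 231 without the NaCl array of run 2 at 50 mM. Among the ethylene glycol arrays at 50, 100, 150 and 200 mM it was 57, 78, 60 and 81 without those of run 1 and 66, 66, 72 and 65 without those of run 2.

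Within run 1 alone, the 4 pairs gave 144 higher and 125 lower genes, and within run 2 alone 69 higher and 17 lower genes. Of the 152 genes called over both runs, 41 were called in run 1 alone and 35 in run 2 alone. The difference between the runs was itself tested on the 8 within-pair differences, a test added after seeing the data. It passed for 69 genes (0.244% of those tested, adjusted p under 0.05, limma), of which 3 were among the 152, namely AT1G59865, AT1G51920 and AT4G10540. At an unadjusted p under 0.05 the same test counted 2953 of 28283 genes, and 23 of the 152. Gaps between the runs may therefore touch more of the 152 than these 3.

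AT1G33600, the gene with the smallest p, encodes a leucine-rich repeat protein, a class that includes many cell-surface receptors. In run 1 its values at rising osmolarity were 4.41, 4.44, 5.01 and 5.49 in NaCl and 3.79, 4.03, 3.95 and 4.18 in ethylene glycol, with 4.05 on the control array. In run 2 they were 3.41, 4.24, 4.68 and 4.89 in NaCl and 3.27, 2.77, 3.15 and 3.23 in ethylene glycol, with 3.17 on the control array. The NaCl and ethylene glycol arrays did not overlap within either run, and the ethylene glycol values lay around the control value of their run. The average difference was 1.025 ± 0.108 log2 units (SE), or 2.03-fold, with an adjusted p of 1.6e-05 (limma), and it passed without any 1 of the 16 arrays.

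AT5G11140 was 2.15-fold higher in NaCl. Its lowest, median and highest values were 3.64, 4.54 and 5.11 on the 8 NaCl arrays and 2.93, 3.4 and 3.8 on the 8 ethylene glycol arrays, and the controls were at 3.71 and 3.77. In run 2 the solutes did not overlap, and in run 1 the pair at 50 mM had 3.64 in NaCl and 3.7 in ethylene glycol. The average difference was 1.103 ± 0.159 log2 units (adjusted p = 0.00117, limma), with NaCl higher in 7 of 8 pairs.

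AT1G59865 had the largest average difference, 1.208 ± 0.216 log2 units (adjusted p = 0.00673, limma), and this average hides a difference between the runs. In run 1 it had 5.76, 5.7, 5.9 and 6.2 in NaCl and 5.17, 5.22, 5.37 and 5.79 in ethylene glycol. In run 2 it had 4.59, 5.42, 5.83 and 5.62 in NaCl and 3.2, 2.89, 3.78 and 3.94 in ethylene glycol. NaCl was higher in all 8 pairs, by a mean of 0.503 in run 1 and 1.913 in run 2, and the controls were at 4.8 and 2.9. A similar gap between runs was measured for AT1G51920, where NaCl was higher by 0.317 in run 1 and 1.178 in run 2.

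AT4G10530 and AT4G10540 are neighbours in the gene order and encode subtilases, which are serine proteases of the extracellular space. The array cannot separate such close copies with certainty, since probes of 1 gene may bind RNA of the other. AT4G10530 had a lowest, median and highest value of 6.07, 6.995 and 7.55 in NaCl and 5.02, 6.235 and 7.23 in ethylene glycol, and AT4G10540 had 6.11, 6.935 and 7.66 in NaCl and 4.7, 6.37 and 7.59 in ethylene glycol. Over all arrays the solutes overlapped in both genes. Within run 2 all NaCl arrays lay above all ethylene glycol arrays in both, and within run 1 this held for AT4G10530. The average differences were 0.716 ± 0.157 and 0.62 ± 0.132 log2 units (adjusted p of 0.0333 and 0.0289, limma). Each lost its call when any 1 of 11 of the 16 arrays was left out, with adjusted p up to 0.0974 for AT4G10530 and 0.0867 for AT4G10540. For AT4G10540 the difference was 0.133 in run 1 and 1.108 in run 2. AT4G10530 leaned the same way, at 0.362 in run 1 and 1.07 in run 2. Its gap between the runs did not pass (adjusted p = 0.099, limma on 8 within-pair differences).

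Among transcription factor genes, AT1G21340, a Dof factor, had a lowest, median and highest value of 2.19, 2.9 and 3.51 in NaCl and 1.96, 2.165 and 2.47 in ethylene glycol, a difference of 0.694 ± 0.155 (adjusted p = 0.0371, limma). It kept its call without 4 of the 16 arrays and lost it without each of the other 12, with an adjusted p of up to 0.101. WRKY41, from the WRKY family of stress and immunity regulators and chosen for naming after its values were seen, had 4.69, 5.29 and 6.76 in NaCl and 3.77, 4.85 and 5.8 in ethylene glycol. Its difference was 0.686 ± 0.129 (adjusted p = 0.0106), NaCl was higher in 7 of 8 pairs, and the call held without any 1 array. AT1G44830, an AP2/ERF factor of the DREB type, differed by 0.656 ± 0.139 (adjusted p = 0.0277), and this rested on the highest osmolarity. At 200 mM it had 4.6 and 3.64 in NaCl against 2.43 and 2.49 in ethylene glycol, whereas at 50 mM it had 3.18 and 3.07 against 3.24 and 2.95. Without the 200 mM level its difference was 0.322 (adjusted p = 0.387), and its call held without 7 of the 16 arrays, with an adjusted p of up to 0.105.

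The other named genes higher in NaCl had smaller differences or other roles. AT2G37810, of the cysteine- and histidine-rich C1-domain family, averaged 4.96 ± 0.319 in NaCl and 4.22 ± 0.409 in ethylene glycol (SD, n = 8 each), a difference of 0.746 ± 0.131 log2 units (adjusted p = 0.00576, limma). AT5G07610, an F-box protein, a class of substrate adaptors of ubiquitin ligases, had values of 4.5 to 5.23 in NaCl and 3.59 to 4.34 in ethylene glycol, with no overlap between the 8 arrays of each solute. AT1G52270 likewise did not overlap, at 1.61 to 1.99 in NaCl and 0.9 to 1.45 in ethylene glycol. Its control was at 2.16 in run 1, above every NaCl array of that run (1.69 to 1.99). In run 2 the control was at 1.34, below every NaCl array (1.61 to 1.77) and within the ethylene glycol range (0.9 to 1.38). The control mean of 1.75, at the NaCl level, averages these 2 opposite placements. AT1G05340, which encodes a small cysteine-rich membrane protein of a stress-linked family, differed by 0.556 ± 0.098, and AT1G55450, of the methyltransferase family, by 0.543 ± 0.085. AT3G56790 differed by 0.619 ± 0.098. AT1G51920, AT2G37810, AT5G07610, AT3G56790, AT1G05340, AT1G55450 and AT1G52270 each passed without any 1 array.

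**Figure D2:**
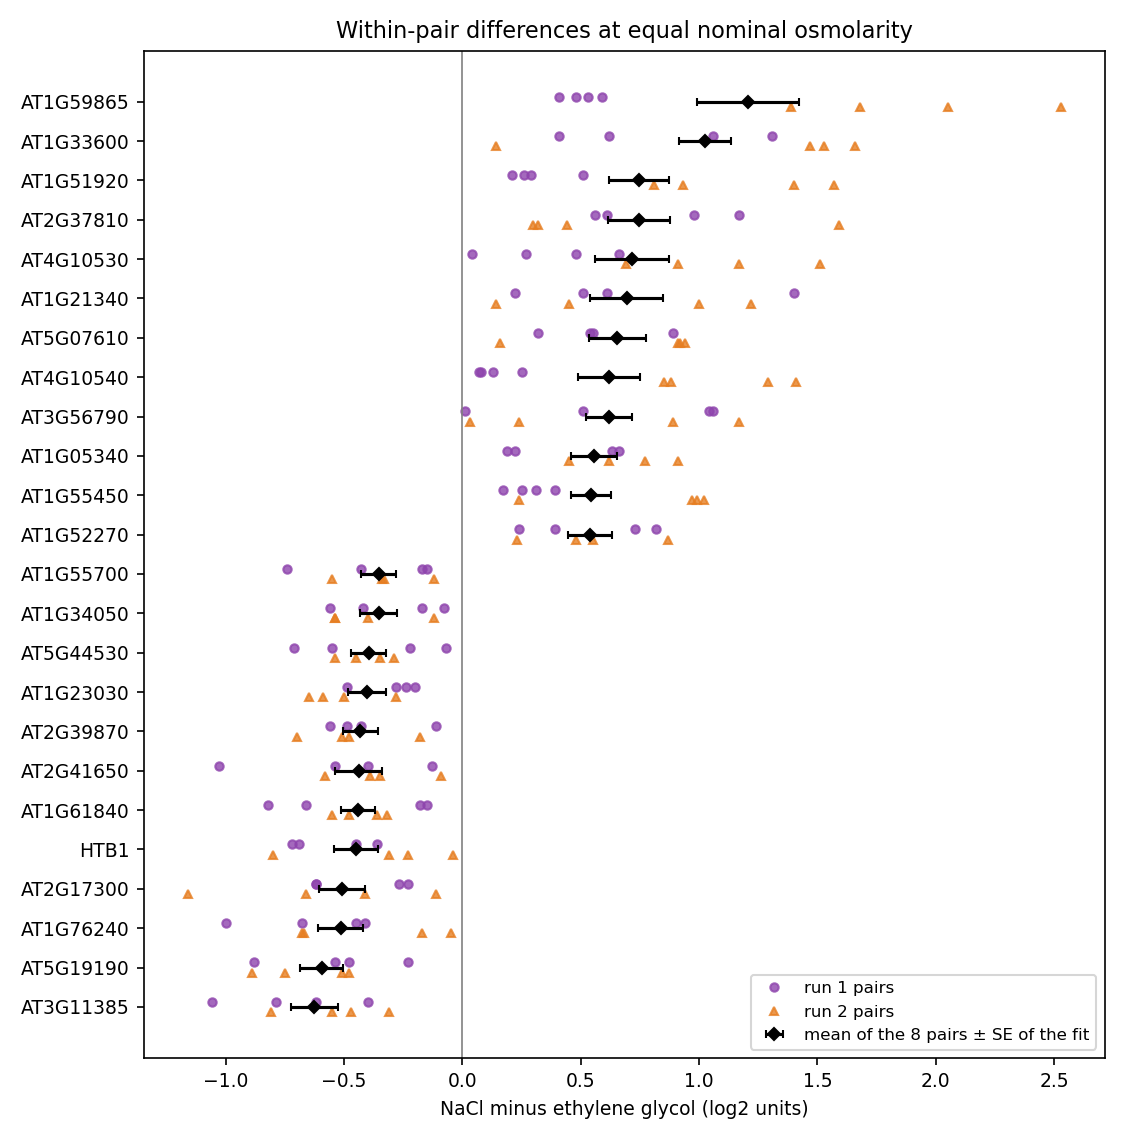
NaCl minus ethylene glycol in each of the 8 pairs (x axis, log2 units) for the 12 largest higher and 12 largest lower named genes whose pairs all had 1 sign, with run 1 as circles, run 2 as triangles and the mean with its SE as black diamonds. AT1G59865, AT1G51920 and AT4G10540 have their run 2 pairs apart from their run 1 pairs.

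Smaller differences were also called. The neighbouring genes AT5G59650 and AT5G59660, which encode leucine-rich repeat receptor-like kinases, differed by 0.359 ± 0.084 and 0.444 ± 0.095 log2 units, with NaCl higher in all 8 pairs for both. AT5G19230 and AT5G19240, neighbours that encode glycoproteins anchored in the membrane by a lipid, differed by 0.316 ± 0.064 (8 of 8 pairs) and 0.386 ± 0.089 (7 of 8 pairs). As copies side by side these pairs may share probe signal. PUB24, a U-box ubiquitin ligase, had 6.26, 6.955 and 7.44 in NaCl and 5.77, 6.475 and 7.26 in ethylene glycol (lowest, median and highest), a difference of 0.363 ± 0.081 (adjusted p = 0.0371, limma). PDF1.2c, a plant defensin, was dim at 1.43 ± 0.135 in NaCl and 1.02 ± 0.214 in ethylene glycol (SD, n = 8 each), a difference of 0.41 ± 0.09 (adjusted p = 0.0333). PUB24 kept its call without 5 and PDF1.2c without 4 of the 16 arrays, with adjusted p of up to 0.102 and 0.104. The genes of this paragraph were chosen for naming after their values were seen.

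Among the lower genes, AT3G11385, another C1-domain gene, had the largest difference among those with a gene name. Its lowest, median and highest values were 4.38, 4.805 and 5.15 in NaCl and 5.21, 5.4 and 5.63 in ethylene glycol. In run 1 the control, at 5.07, lay between the NaCl arrays (4.38 to 4.81) and the ethylene glycol arrays (5.21 to 5.44). In run 2 the control, at 5.04, lay within the NaCl range of that run (4.8 to 5.15). The control mean was between the means of the solutes. All 8 NaCl arrays were below all 8 ethylene glycol arrays, by an average of 0.626 log2 units (difference −0.626 ± 0.098, adjusted p = 0.00198, limma), or 1.54-fold. AT5G19190 differed by −0.595 ± 0.091 (adjusted p = 0.00171), with 3.57, 4.165 and 4.78 in NaCl and 4.38, 4.77 and 5.17 in ethylene glycol. In AT5G19190 the solutes did not overlap within either run, and the control mean of 4.765 was close to that of ethylene glycol. Both genes passed without any 1 array.

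AT1G76240, of unknown function, had 5.62, 6.1 and 6.78 in NaCl and 5.87, 6.665 and 7.26 in ethylene glycol, against 6.94 and 7.38 on the control arrays, and the NaCl minus ethylene glycol difference was −0.514 ± 0.095 (adjusted p = 0.00958, limma). In run 1 every NaCl array was below every ethylene glycol array. AT1G61840, again of the C1-domain family, differed by −0.44 ± 0.072 and AT1G55700, of the same family, by −0.354 ± 0.075. AT1G55700 kept its call without 7 of the 16 arrays, with an adjusted p of up to 0.0838. C1-domain genes therefore stood on both sides, with AT2G37810 and AT2G44390 (0.446 ± 0.101) higher and AT3G11385, AT1G61840, AT1G55700 and AT5G54030 (−0.504 ± 0.1) lower in NaCl. The rest of the family was not counted here, and the grouping was made after the values were seen.

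HTB1, a gene for histone H2B, had 4.62, 5.455 and 6 in NaCl and 5.22, 5.84 and 6.47 in ethylene glycol (lowest, median and highest), a difference of −0.45 ± 0.095 (adjusted p = 0.0272, limma), and its call held without 7 of the 16 arrays, with an adjusted p of up to 0.0861. AT1G23030, a U-box ubiquitin ligase, was 5.04 to 5.34 in NaCl and 5.24 to 5.71 in ethylene glycol, both below the control mean of 5.765. AT5G44530, a subtilase, differed by −0.397 ± 0.073, in the opposite direction to AT4G10530 and AT4G10540. The remaining named lower genes AT2G17300, AT2G41650, AT2G39870 and AT1G34050 differed by −0.51 ± 0.097, −0.439 ± 0.1, −0.432 ± 0.073 and −0.354 ± 0.077. AT2G17300 lost its call without 1 of the 16 arrays, ethylene glycol 50 mM of run 1 (adjusted p = 0.0506), and AT1G23030 without ethylene glycol 150 mM of run 2 (adjusted p = 0.0506). AT2G41650 passed without 3 arrays and AT1G34050 without 4, with adjusted p of up to 0.111 and 0.0856.

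Regulators among the lower genes, chosen after their values were seen, were UPB1, BZIP61 and BIM1. UPB1 (UPBEAT1) is a bHLH factor that controls peroxidase genes and so the balance of reactive oxygen species in the root tip. Its lowest, median and highest values were 3.03, 3.36 and 4.14 in NaCl and 3.66, 4.07 and 4.21 in ethylene glycol, a difference of −0.496 ± 0.11 (adjusted p = 0.0348, limma), with NaCl lower in 7 of 8 pairs, and it held without 5 of the 16 arrays, with an adjusted p of up to 0.105. BZIP61, a bZIP factor, had 7.17, 7.635 and 7.93 in NaCl and 7.62, 8.02 and 8.26 in ethylene glycol, with a control mean of 8.09. Within each run its solutes did not overlap, and the difference of −0.347 ± 0.055 (adjusted p = 0.00198) held without any 1 array. BIM1, a bHLH factor of brassinosteroid signalling, differed by −0.215 ± 0.048 (adjusted p = 0.0396), and this held without 3 of the 16 arrays, with an adjusted p of up to 0.122.

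Of the probe sets with no gene name, the 4 named by the rule differed by 0.743 ± 0.109 (probe set 13488714), 0.683 ± 0.144 (13354252), −0.673 ± 0.076 (13383152) and −0.55 ± 0.128 (13529467). Probe set 13383152 had the second smallest p of all genes after AT1G33600. It had 5.78, 5.18, 5.15 and 5.28 in NaCl and 6.42, 6.29, 5.89 and 5.73 in ethylene glycol in run 1, and 6.31, 5.68, 5.67 and 5.46 and 6.34, 6.58, 6.21 and 6.43 in run 2. The controls were at 6.37 and 6.85, with a mean above those of both solutes, and the adjusted p was 3.15e-05 (limma). Probe sets 13354252 and 13529467 passed without 5 and 3 of the 16 arrays, with adjusted p of up to 0.0861 and 0.143.

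At each osmolarity alone, with 2 arrays against 2, few genes passed. At 50 mM, 0 of 28283 genes (0%) passed in limma, with 1341 at an unadjusted p under 0.05 and 419 such genes in the unblocked fit. At 100 mM 1 gene passed (0.00354%), probe set 13383152 at −1.005 ± 0.152 (adjusted p = 0.0135), and at 150 mM 3 passed (0.0106%). These were AT5G11140 at 1.87 ± 0.317 (adjusted p = 0.0434), AT1G33600 at 1.295 ± 0.216 (adjusted p = 0.0434) and AT3G56790 at 1.115 ± 0.195 (adjusted p = 0.0462). At 200 mM 2 passed (0.00707%), AT1G44830 at 1.66 ± 0.277 (adjusted p = 0.0338) and AT1G33600 at 1.485 ± 0.216 (adjusted p = 0.00726). In the unblocked fit 0 genes passed at each level, although 902, 593 and 340 genes had an unadjusted p below 0.05 at 100, 150 and 200 mM. These calls changed when single arrays were left out. At 50 mM 2 genes passed without the NaCl array of that level in run 2. At 100 mM 18 genes passed without the NaCl array of that level in run 2, and 0 passed without the NaCl array of run 1 or the ethylene glycol array of run 2. Without the ethylene glycol array of that level in run 1, 1 gene passed, which was not probe set 13383152. At 150 mM 0 passed without either NaCl array of 100 mM or either ethylene glycol array of 50, 150 or 200 mM. Without the NaCl array of 75 mM in run 2, 3 genes passed at 150 mM, of which 0 were among the 3 named, and without that of run 1, 3 passed, of which 2 were among them. At 200 mM 0 passed without the NaCl array of 100 mM in run 1 or either ethylene glycol array of 200 mM, and 1 passed without either NaCl array of 75 mM or either ethylene glycol array of 50 or 100 mM. Without the NaCl array of 100 mM in run 2, 2 passed at 200 mM, of which 1 was among those named.

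The test of whether the difference changed with osmolarity passed for 0 of 28283 genes (0%). In limma 866 genes had an unadjusted p under 0.05 for the slope of the difference, 263 in the unblocked fit, and the smallest adjusted p was 1. Each solute's own slope over its 4 doses passed for 168 genes in NaCl (0.594%) and 46 genes in ethylene glycol (0.163%), with the control left out. AT3G56790 rose with NaCl by 1.164 ± 0.123 log2 units per 100 mM osmolarity (adjusted p = 2.5e-06) and had a slope of 0.449 ± 0.123 in ethylene glycol (adjusted p = 0.343). The slope of its difference was 0.715 with a 95% interval of 0.357 to 1.073 and an adjusted p of 1. AT1G33600 rose with NaCl by 0.869 ± 0.137 (adjusted p = 0.000703) and had 0.135 ± 0.137 in ethylene glycol (adjusted p = 0.999), with a slope of the difference of 0.734 (0.336 to 1.132, adjusted p = 1). AT1G44830 had 0.588 ± 0.175 in NaCl and −0.385 ± 0.175 in ethylene glycol. BIM1 differed by −0.2, −0.22, −0.21 and −0.23 at rising osmolarity.

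**Figure D3:**
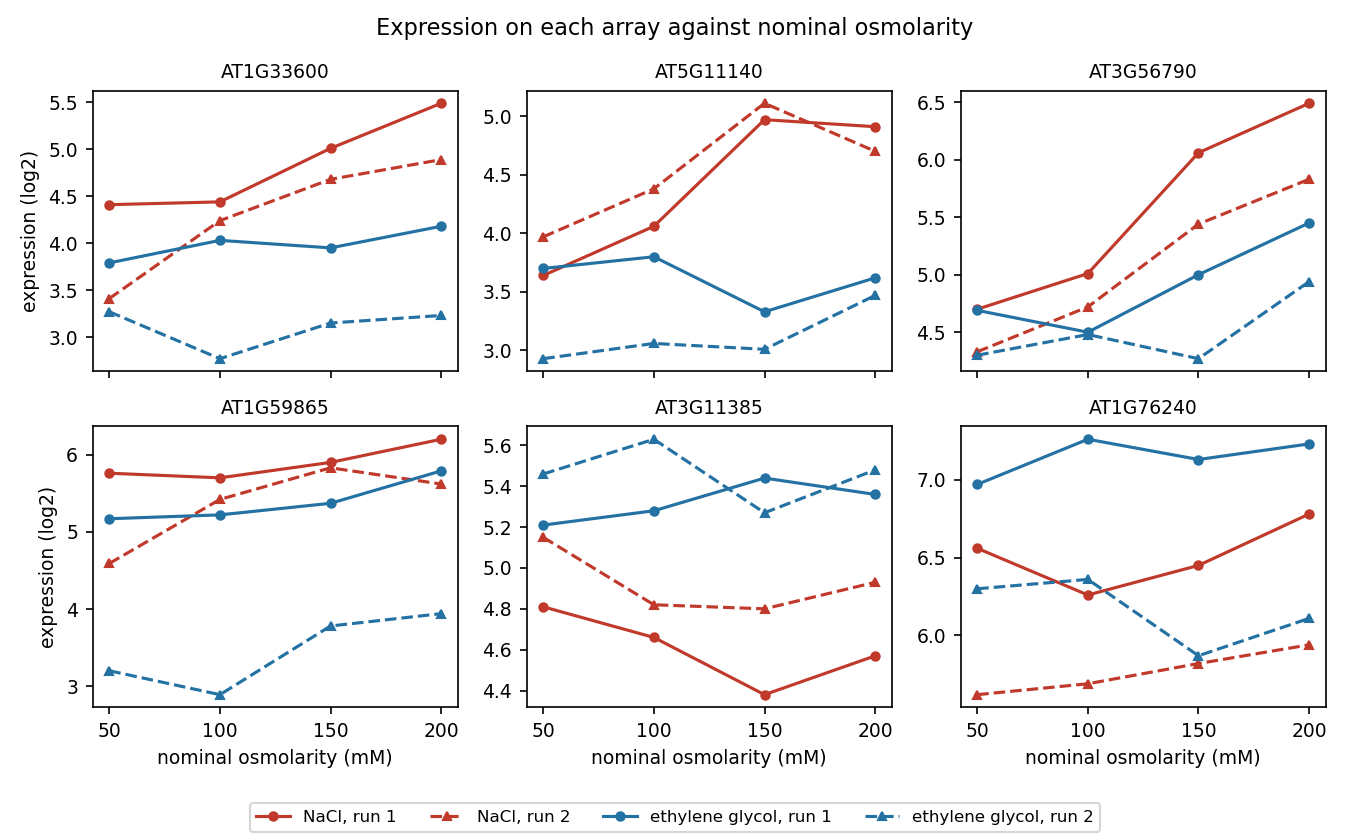
Expression (y axis, log2) of 6 genes on every NaCl and ethylene glycol array against nominal osmolarity (x axis, mM), with run 1 as solid lines with circles and run 2 as dashed lines with triangles. The AT1G33600 values in NaCl lie above those in ethylene glycol within each run, and all AT3G11385 values in NaCl lie below all those in ethylene glycol; the slope of the difference passed for none of the 6.

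Some dose-responsive genes rose in both solutes and did not pass in the comparison of their averages. AT3G29000 and AT5G40000 were chosen after their values were seen. AT3G29000, an EF-hand calcium-binding protein gene, rose by 1.081 ± 0.107 log2 units per 100 mM osmolarity in NaCl and by 1.26 ± 0.107 in ethylene glycol (adjusted p of 8.46e-07 and 1.4e-07, limma). Its average difference was 0.061, with a 95% interval of −0.112 to 0.234. AT5G40000, an AAA-type ATPase gene, rose by 1.523 ± 0.136 in NaCl and 0.845 ± 0.136 in ethylene glycol (adjusted p of 1.64e-07 and 0.00333), and its average difference was −0.215 with an interval of −0.437 to 0.007. At 50 mM AT5G40000 stood at −0.915 in NaCl against ethylene glycol, and the slope of its difference was 0.678 (0.282 to 1.074, adjusted p = 1). STZ, a zinc finger repressor of the salt and drought response, rose by 0.531 ± 0.078 and 0.517 ± 0.078 (adjusted p of 0.00032 and 0.00169). It was higher in NaCl in all 8 pairs, by 0.22 (0.093 to 0.347), with an adjusted p of 0.0974.

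Gene lists were read by their counts, beside 0.255% of all genes tested called higher and 0.283% called lower in NaCl. Few listed genes had a named probe set, so the lists cover their pathways thinly. Among ion transporters, 1 of 19 sodium and potassium genes (CHX21, a cation and proton exchanger, difference 0.039 ± 0.123) and 1 of 9 chloride and nitrate genes (AT3G45700, 0.064 ± 0.105) were measured, and neither passed. Of the calcium list 4 of 15 were measured and 0 passed, with CML23, a calmodulin-like protein, at −0.34, 0.205, 0.435 and 0.89 at rising osmolarity. The slope of the CML23 difference was 0.784 ± 0.232 (unadjusted p = 0.00227, adjusted p = 1, limma), beside own slopes of 0.939 in NaCl (adjusted p = 0.00261) and 0.155 in ethylene glycol (adjusted p = 0.999).

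Among regulators, 0 of 4 measured ZAT and AZF zinc finger genes, 0 of 2 WRKY genes and 0 of 2 AP2/ERF genes on the lists passed. The list medians were 0.12, 0.138 and −0.08, against 0.008 over all genes. WRKY6, the WRKY factor with the smallest p on the list, differed by 0.232 ± 0.064 (adjusted p = 0.0866, limma), and DREB2C, a dehydration-response factor, by −0.069 ± 0.11. Of the VQ-motif proteins, which bind WRKY factors, 1 of 3 passed as higher in NaCl, against 0.255% of all genes tested. This was AT1G17147, with 3.46, 4.37 and 5.04 in NaCl and 3.23, 3.87 and 4.61 in ethylene glycol (lowest, median and highest), a difference of 0.485 ± 0.089 (adjusted p = 0.00889), held in all 8 pairs and without any 1 array.

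In the abscisic acid and dehydration list, 0 of 4 measured genes passed (median 0.188), with COR15A, a cold- and drought-induced protein of the chloroplast, at 0.234 ± 0.101 (adjusted p = 0.273, limma). COR15A, COR15B and KIN1 were dim, with means of 1.44, 1.041 and 1.822 in NaCl and 1.206, 0.858 and 1.63 in ethylene glycol. Only COR47 was bright, at 9.299 and 9.25, so this list says little about that pathway. In the ethylene list EIN3, the central transcription factor of that pathway, was the only gene measured of 14 and differed by 0.113 ± 0.061, and of 3 measured auxin genes 0 passed, with IAA29, an auxin-induced repressor, at 0.139 ± 0.122. Of the tension sensors, THE1, a receptor kinase that monitors the cell wall, differed by −0.246 ± 0.077 (adjusted p = 0.129) and 0 of 3 passed. GSTU25, a glutathione transferase and the only gene measured of the oxidative stress list, differed by −0.078 ± 0.141, and GI, a clock gene, by 0.043 ± 0.054. GSTU25 was dim as well, with means of 1.681 in NaCl and 1.759 in ethylene glycol. Of the jasmonate, aquaporin, heat shock and low oxygen lists 0 genes were measured.

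Expansins and XTH enzymes, which loosen and remodel the cell wall, had 8 of 24 listed genes measured, of which 2 were called higher in NaCl than in ethylene glycol, 0 lower and 6 did not pass (list median 0.107). Over all genes tested 0.255% were called higher and 0.283% lower, with a median of 0.008. EXPA7, which acts in root hair growth, had 6.91, 7.59 and 8.08 in NaCl and 6.62, 7.235 and 7.72 in ethylene glycol, a difference of 0.433 ± 0.1 (adjusted p = 0.0427, limma), with means of 7.616 in NaCl, 7.184 in ethylene glycol and 7.485 in the control. EXPA20 had 4.41, 5.625 and 6.24 in NaCl and 4.44, 5.145 and 5.78 in ethylene glycol, a difference of 0.331 ± 0.076 (adjusted p = 0.0422). It rose with dose in both, by 0.972 ± 0.096 log2 units per 100 mM osmolarity in NaCl and 0.579 ± 0.096 in ethylene glycol (adjusted p of 8.46e-07 and 0.00422). Both EXPA7 and EXPA20 are near the threshold and kept their calls without 2 of the 16 arrays each, with adjusted p of up to 0.122 and 0.117. EXPA18, the other root hair expansin, differed by 0.319 ± 0.084 (adjusted p = 0.0757). Over all 13 EXPA genes measured, the median difference was 0.199, with 0.325 in run 1 alone (2 called higher, 1 lower) and 0.05 in run 2 alone (0 called). Of the 13, 3 were below 0, namely EXPA15, EXPA9 and EXPA4 at −0.242, −0.236 and −0.229, none of which passed. After centring the median was 0.217 with 3 below 0, and after quantile normalisation it was 0.121 with 4 below 0.

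Cell type markers were thinly covered as well. Besides EXPA7 as the 1 of 4 root hair markers measured, both cortex markers were measured and neither passed (AT1G09750 at −0.169 ± 0.083 and AT1G62500 at 0.13 ± 0.088). Of 6 shoot markers 1 was measured, RCA, at 0.055 ± 0.1, and it did not pass. The endodermis, stele, phloem and meristem lists had 0 measured genes. In whole roots, fewer cells of a type and less RNA per cell cannot be told apart, and any part of cell type shares in these results was not tested.

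The control arrays are set beside the difference. Of the 72 genes higher in NaCl, the control mean lay nearer to ethylene glycol in 58 and nearer to NaCl in 14. It was between the solutes in 42, below both in 28 and above both in 2. Of the 80 genes lower in NaCl, the control was nearer to ethylene glycol in 66 and nearer to NaCl in 14, between the solutes in 44, above both in 35 and below both in 1. Among the 24 genes drawn by name, AT1G52270, AT3G11385 and AT1G34050 had the control mean nearer to NaCl. In AT1G52270 and AT3G11385 the control was placed differently in each run, as given with their values. AT1G52270 averaged 1.756 in NaCl, 1.218 in ethylene glycol and 1.75 in the control, AT3G11385 averaged 4.765, 5.391 and 5.055, and AT1G34050 averaged 6.236, 6.59 and 6.355. The control group holds 2 arrays, so these placements are descriptions with no test. The same placement was not counted over all genes tested, so whether these shares are particular to the called genes is not known.

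**Figure D4:**
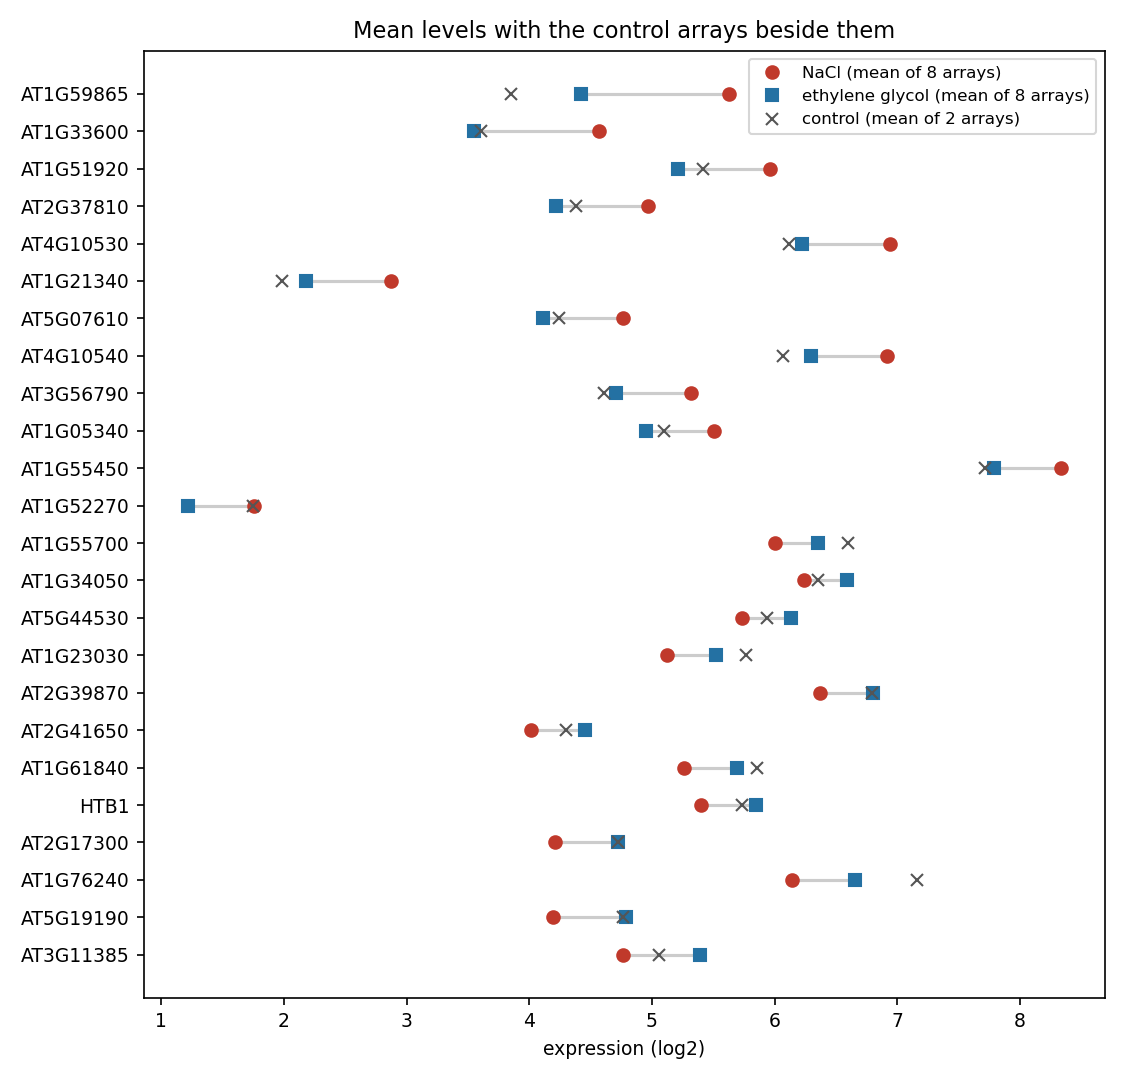
Mean expression (x axis, log2) in NaCl (circles, 8 arrays), ethylene glycol (squares, 8 arrays) and control (crosses, 2 arrays) for the 24 genes of the pair plot. In 11 of the 12 higher and 10 of the 12 lower genes the control mean is nearer to ethylene glycol; the share over all genes was not counted.

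Sorbitol, an uncharged solute that enters cells slowly, was measured at 50, 100 and 150 mM and so at 3 of the 4 osmolarities. The values below share the NaCl or the ethylene glycol arrays with the main comparison and are no separate support for it. Over these levels NaCl against sorbitol gave 0 called genes (0%, limma), although 1736 had an unadjusted p below 0.05, 557 in the unblocked fit. The smallest adjusted p was 0.0514 (limma with the run block), close to the threshold, so the absence of calls does not show that these solutes act alike. Sorbitol against ethylene glycol gave 89 (0.315%), and 1 in the unblocked fit. NaCl against ethylene glycol over the same 3 levels gave 39, and 0 in the unblocked fit. Of the 80 genes lower in NaCl, sorbitol was nearer to NaCl in 66 and nearer to ethylene glycol in 14, and 19 of them passed as lower in sorbitol than in ethylene glycol. Of the 72 genes higher in NaCl it was nearer to NaCl in 35 and to ethylene glycol in 37, and 5 passed as higher in sorbitol. These distances are over 3 levels and the calls over 4. The same shares were not counted over all genes tested. AT3G11385 stood at −0.947 in sorbitol against ethylene glycol (adjusted p = 0.000178) and 0.335 in NaCl against sorbitol (adjusted p = 0.677). AT5G07610 stood at −0.047 in sorbitol against ethylene glycol (adjusted p = 0.897) and 0.675 in NaCl against sorbitol (adjusted p = 0.117).

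Plastid-encoded genes leaned to lower values in NaCl. These genes of the plastid's own genome encode photosynthesis, NDH and gene expression proteins, and they are transcribed in the non-green plastids of roots too. Of 63 measured, 61 were lower and 2 higher in NaCl on average, against 47.7% lower among all genes. The median difference was −0.16 log2 units, against 0.008 over all genes. Of the 63, 2 passed, both lower, against 0.283% of all genes tested called lower. These were ndhK at −0.349 ± 0.052 (adjusted p = 0.0012, limma) and ndhH at −0.259 ± 0.056 (adjusted p = 0.0333), which encode subunits of the NDH complex, a plastid enzyme of electron transport. ndhK had 6.66, 7.04 and 7.32 in NaCl and 6.94, 7.35 and 7.7 in ethylene glycol (lowest, median and highest), with no overlap within either run and the call kept without any 1 array. ndhH had 8.21, 8.42 and 8.72 in NaCl and 8.44, 8.68 and 8.96 in ethylene glycol, and kept its call without 3 of the 16 arrays, with an adjusted p of up to 0.0914. All 10 measured ndh genes were lower in NaCl, from −0.115 (ndhD) to −0.349 (ndhK). These members were grouped after their values were seen and share probe signal scale, RNA and array, so their common direction is not a count of separate events.

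The lean of the plastid genes was larger in run 1. The median over the 63 genes on each array was 8.8 to 8.87 in NaCl and 9.07 to 9.2 in ethylene glycol in run 1, and 8.76 to 8.81 and 8.82 to 8.92 in run 2. The NaCl and ethylene glycol arrays did not overlap in either run. The control arrays stood at 9.18 in run 1, near ethylene glycol, and at 8.63 in run 2, below both. The median difference was −0.25 in run 1 and −0.062 in run 2, and it was −0.141 after centring and −0.126 after quantile normalisation. The narrower spread of values on the NaCl arrays of run 1 moves with this result, and its part in it was not tested beyond these rescaled fits.

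**Figure D5:**
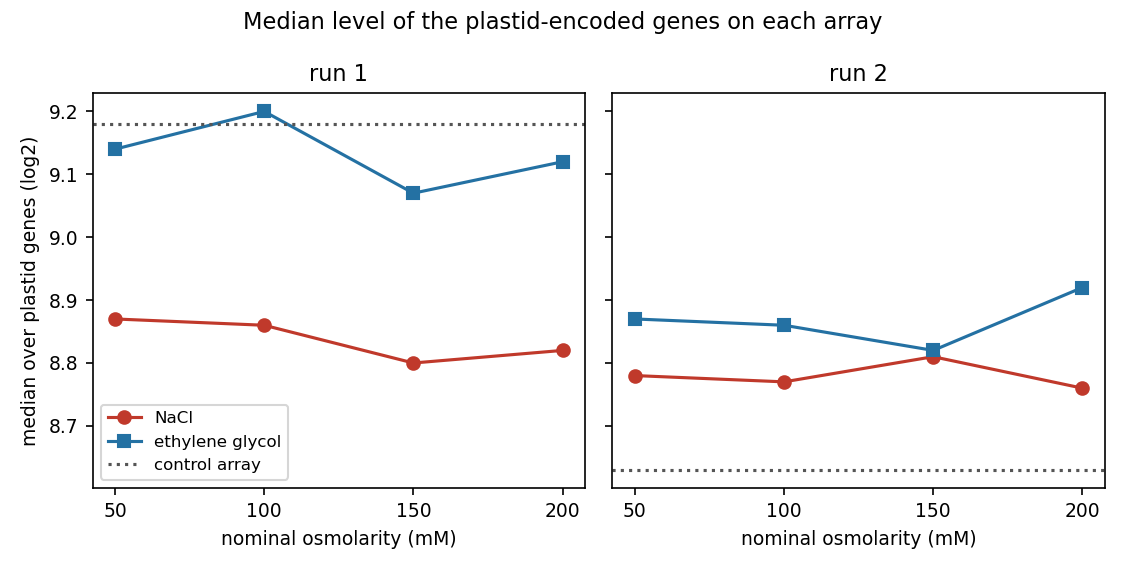
Median expression over the 63 plastid-encoded genes (y axis, log2) on each NaCl (circles) and ethylene glycol (squares) array against nominal osmolarity (x axis, mM), with 1 panel per run and the control array of that run as a dotted line. NaCl lies below ethylene glycol at all 4 osmolarities in run 1, and in run 2 by less, with 8.81 and 8.82 at 150 mM.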

How the data were processed

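Normalised expression values on 32 one-colour Affymetrix whole-transcript arrays were deposited by the authors, and the submitters' processing notes name GCRMA, Transcriptome Analysis Console and Affymetrix Expression Console; no version or build was found in the sources used here. The deposited values (0.2 to 12.45) were read as log2 from their range, which no source states; with another base the folds would change and the tests would not. Of 28477 probe sets, 16746 listed 1 gene, 758 several and 10973 none. Gene names came from the array annotation and a RefSeq table, and the brightest probe set of a gene was kept. All 32 value columns belonged to samples. The number of arrays limits precision.

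limma 3.58.1 (R 4.3.3) fitted 1 mean for each of 16 groups and the title-number run as a replicate block on all 32 arrays (15 residual degrees of freedom), letting the prior variance follow the mean level; p-values were adjusted over 28283 genes by Benjamini-Hochberg and called at 0.05; the script was tested on simulated data. The numbers paired the arrays, since the deviations of the 2 runs from their group means correlated at 0.501 to 0.767 over all 120 pairs of groups (28 pairs of NaCl and ethylene glycol groups, 0.597 to 0.767); no label states this pairing, which was read from the titles. Named genes were the 12 largest differences in each direction among called, named genes with 1 sign in all 8 pairs, up to 3 in each direction at each level, up to 4 called members of a list or else the 1 with the smallest p, and the 2 largest unnamed probe sets in each direction; others are marked as chosen after their values were seen. The members and lists were chosen with earlier results of these data known. Promoter motifs were not analysed here. Plots used matplotlib 3.10.9.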

Additional observations from a re-analysis of the deposited data

Results flagged for a closer look

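AT1G59865 differed between the runs in its NaCl minus ethylene glycol difference, which was 1.41 log2 units larger in run 2 than in run 1 (adjusted p = 0.00128, limma on 8 within-pair differences), with all 8 pairs higher in NaCl. AT4G10540 was 0.975 larger in run 2 (adjusted p = 0.000882), at 1.108 in run 2 and 0.133 in run 1. AT1G51920 was 0.86 larger in run 2 (adjusted p = 0.0273), at 1.178 in run 2 and 0.317 in run 1. In all 3 genes the direction was the same in both runs, which their naming by 1 sign in all 8 pairs fixed in advance. Among the genes named for the average or for a level, none had 1 of its 8 within-pair differences apart from the rest by Dixon's test at the 95% level.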

How the results depend on the processing

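For the average over 4 osmolarities, 152 genes were called, with 143 after centring, 155 after quantile normalisation, 158 with robust moderation, 168 with identical probe sets counted once, 126 with doses matched by nominal mM and 108 without the 50 mM level. The count was 243 on the 16 arrays alone, 229 without the dimmest 25% of genes, 47 without the mean-variance trend, 283 on the 8 within-pair differences, 269 in run 1 alone, 86 in run 2 alone, 39 without the 200 mM level and 57 to 231 without 1 array. The unblocked fit with no replicate block called 0 genes for the average and at 100, 150 and 200 mM. At 50 mM, leaving out 1 array gave 0 to 2 genes. At 100 mM the count was 0 on the 16 arrays alone, 2 after quantile normalisation, 0 without the trend and 0 to 18 without 1 array. At 150 mM it was 0 without the trend and 0 to 3 without 1 array. At 200 mM it was 1 on the 16 arrays alone, 1 without the trend and 0 to 2 without 1 array. The slope of the difference called 0 genes in each fit run for it. Where 1 of the 2 arrays of a dose was left out, the other was assumed to vary like those of the other groups. Of the called genes whose average was refitted under each alternative, which leaves out those named only for a neighbour, the C1-domain genes AT2G44390 and AT5G54030, ZCF37 and AT3G02840, none changed its direction. The genes named for the average were picked by 1 sign in all 8 pairs. This fixed their direction in advance within each run, on the 8 within-pair differences and without a level. Fewer arrays or levels raise the error by construction, yet the count also rose on the 16 arrays alone and without some single arrays. The causes of these changes were not tested. With 2 arrays a dose, single osmolarities allow few calls, and dim genes such as PDF1.2c and AT1G52270 lie near the lower end of the scale.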

Other observations

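ZCF37 (0.425 ± 0.067 log2 units, adjusted p = 0.00198, limma) and AT3G02840, an ARM repeat gene (0.535 ± 0.111, adjusted p = 0.0233), were higher in NaCl in all 8 pairs. ZCF37 averaged 6.487 in NaCl, 6.062 in ethylene glycol and 5.86 in the control, and AT3G02840 averaged 5.33, 4.795 and 4.46. Both were chosen after their values were seen.

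Called genes included 4 sets of neighbours in the RefSeq gene order, and within each set both genes were higher in NaCl. AT4G10530 and AT4G10540, AT5G19230 and AT5G19240, and AT5G59650 and AT5G59660 are adjacent, whereas AT1G33600 and AT1G33607 have 1 gene between them. AT1G33607 differed by 0.56 ± 0.127 log2 units (adjusted p = 0.0412, limma), beside 1.025 for AT1G33600. The sharing of probe signal within these sets was not tested.

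Matching the doses by nominal mM set NaCl 50 and 100 mM against ethylene glycol 50 and 100 mM. NaCl then stood at nominal osmolarities of 100 and 200 mM against 50 and 100 mM. A gene that rises with osmolarity in both solutes gains a NaCl excess by this match alone. The values below are therefore descriptions and no support for a difference between the solutes. AT3G29000 was then higher in NaCl by 0.945 log2 units (adjusted p = 9.05e-05, limma), against 0.061 (adjusted p = 0.77) at equal osmolarity. EXPA20 differed by 0.875 (adjusted p = 8.33e-05), against 0.331 at equal osmolarity, and STZ by 0.578 (adjusted p = 0.000982), against 0.22. EXPA7 did not gain, at 0.423 against 0.433. AT1G59865, AT1G33600 and AT5G11140, at 1.615, 1.3 and 1.14, were called under both ways of matching, which share arrays.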
